A study of Homo sapiens with 9 samples.

Results

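The genes described here are 9 genes of squamous differentiation and of the cornified envelope: SBSN, TRPV3, IVL, SPRR1A, SPRR1B, SPRR2D, TGM1, CSTA and PI3, out of 26186 genes in the table. They were chosen by symbol, with their values in CHAF1B knockdown against shGFP already known, so their levels against shGFP are given as a description without a test. Only the difference between the 2 hairpins against CHAF1B was tested for them, and all 9 had a row in the table. Polyadenylated RNA was sequenced from MCF10A, a single immortalized line of non-tumour human mammary epithelial cells. The groups, with 3 libraries each, carried a first hairpin against CHAF1B (shCHAF1B-1), a second hairpin against CHAF1B (shCHAF1B-2) or a hairpin against green fluorescent protein as control (shGFP). All groups shared the lentiviral pLKO.1 vector, puromycin at 2 µg/mL from 24 hours after transduction, and RNA collection at day 3. CHAF1B encodes a subunit of CAF-1, the complex that deposits histones on newly copied DNA, and the series asked how RNA levels differ when CAF-1 is suppressed. Whether replicates came from separate cultures is not stated in the labels, so p-values measure only the variation among these libraries, part or all of which may be technical.

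In stratified squamous epithelium, keratinocytes leave the basal layer, switch keratins and finally replace their plasma membrane with a cornified envelope. Precursors such as involucrin and the small proline-rich proteins are joined to each other by transglutaminases, with calcium entry as a trigger, while protease inhibitors limit the breakdown of the shell. Mammary epithelium does not normally cornify, and MCF10A cells carry basal keratins such as KRT5 and KRT14.

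CHAF1B (ENSG00000159259.7, chromosome 21, 36385378 to 36419015, plus strand, GRCh38) had 63, 121 and 87 counts with shCHAF1B-1 and 64, 99 and 73 counts with shCHAF1B-2, against 914, 1145 and 1050 counts with shGFP. The libraries held between 24339914 and 31819468 counts, and 16235 genes passed the filter on low counts. All 10 epithelial identity markers had a row, and their summed level was 6050 to 6750 CPM (TMM-scaled counts per 1e6) with shCHAF1B-1 and 6050 to 6480 CPM with shCHAF1B-2, against 9270 to 10100 CPM with shGFP. KRT5 made up most of that sum, with 4080 CPM under shCHAF1B-1 and 4040 CPM under shCHAF1B-2, against 7260 CPM with shGFP. Of the 10 markers, 5 rose and 4 fell under both hairpins (an adjusted p under 0.05 with each in edgeR's quasi-likelihood test, adjusted by Benjamini-Hochberg), with a median log2 fold change of 0.04. By the same rule, 23.8% of all genes tested rose and 20.8% fell. Transcripts of 12 B lymphocyte markers summed to 350 CPM in shCHAF1B-1 replicate 3, against 2.11 to 5.06 CPM in the other 8 libraries. Results are therefore also given without that library where it matters. T lymphocyte markers, of which 3 of 8 had a row, summed to at most 0.789 CPM with shCHAF1B-1, 0.42 CPM with shCHAF1B-2 and 0.251 CPM with shGFP. Myeloid markers (5 of 8 with a row) summed to 41.9 to 45.9 CPM under shCHAF1B-1 and 41.3 to 43.2 CPM under shCHAF1B-2, against 29.2 to 33.3 CPM with shGFP. Of the 3 myeloid markers tested, CD14 rose and CSF1R and ITGAM passed in neither direction. Fibroblast markers (6 of 8 with a row) summed to 54.9 to 58.5 CPM under shCHAF1B-1 and 57.1 to 58.3 CPM under shCHAF1B-2, against 43.5 to 46.9 CPM with shGFP. Of the 3 fibroblast markers tested, FAP and COL1A1 rose and DCN fell. In these marker lists, 0 genes with a row were at 0 in all 8 libraries other than shCHAF1B-1 replicate 3. The part of other cells in the results below was not tested. In bulk RNA, fewer cells of a type and less RNA per cell cannot be told apart.

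The 9 genes went in different directions with either hairpin. TRPV3 and SBSN were far higher in every knockdown library, SPRR1B, SPRR2D, PI3 and CSTA were lower in every one, and the libraries of IVL, TGM1 and SPRR1A overlapped. All 6 knockdown libraries thus lay above all 3 shGFP libraries for 2 genes and below them for 4, and overlapped for 3. Over all genes tested, the knockdown libraries lay wholly above for 25.8% and wholly below for 22.7%. The members were chosen with these contrasts known, so nothing is read from these shares.

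**Figure D1:**
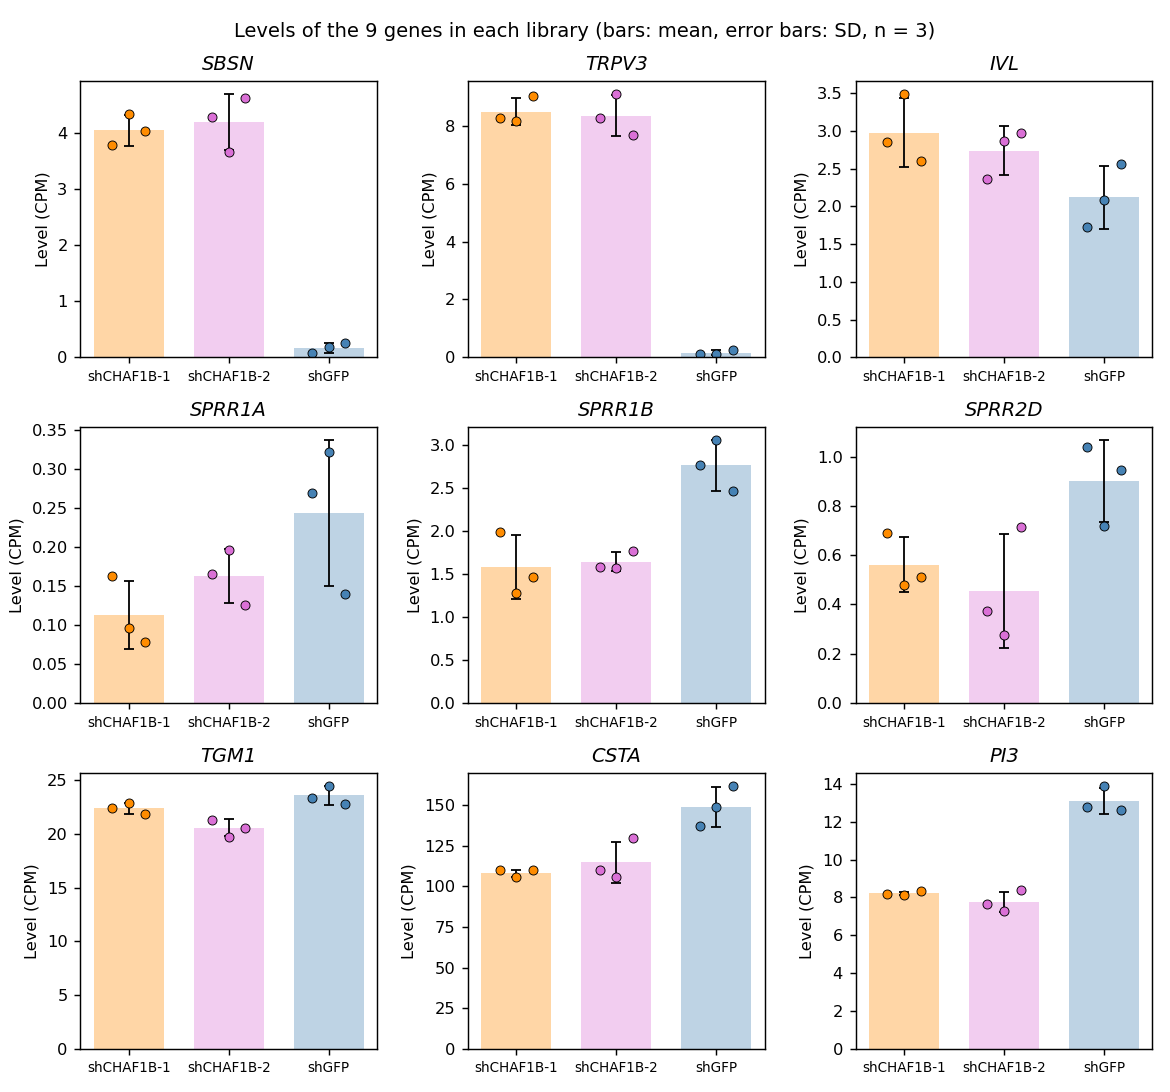
Level of each of the 9 genes in CPM, on linear axes from 0 that differ between panels, in shCHAF1B-1, shCHAF1B-2 and shGFP libraries (points). Bars give group means and error bars the SD of 3 libraries. TRPV3 and SBSN are near 0 in shGFP, at 0.156 and 0.167 CPM on average. The knockdown libraries of SPRR1B, SPRR2D, PI3 and CSTA lie below the shGFP libraries, and those of IVL, SPRR1A and TGM1 overlap them.

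Promoter sequence was at hand for 5 of the 9 genes (RefSeq, GRCh38.p14, 250 bases before to 50 bases after the start). Those of SPRR2D, PI3, CSTA and TGM1 are not used here. The 4 sequences below are shown because they belong to TRPV3 and SBSN, whose knockdown libraries all lay far above shGFP, to SPRR1B, whose knockdown libraries all lay below it, and to IVL, whose libraries overlapped. Letters are in the direction of transcription. AP-1 factors of the FOS and JUN families recognise the heptamers TGACTCA and TGAGTCA. Capitals mark the wider heptamer TGANTCA, in which N is any base, the TATA box TATAAA and the GC box GGGCGG. Both strands were searched for these and also for CCGGAAG and CCAAT, which none of the 5 held, and no marked motif overlaps another.
SBSN, chr19:35528262-35528561, minus strand: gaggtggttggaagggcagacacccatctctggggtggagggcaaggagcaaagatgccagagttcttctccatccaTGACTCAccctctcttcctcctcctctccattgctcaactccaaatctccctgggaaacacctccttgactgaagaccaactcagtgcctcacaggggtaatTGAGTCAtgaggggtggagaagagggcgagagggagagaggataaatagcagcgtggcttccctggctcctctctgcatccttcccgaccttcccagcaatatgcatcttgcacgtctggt
TRPV3, chr17:3557763-3558062, minus strand: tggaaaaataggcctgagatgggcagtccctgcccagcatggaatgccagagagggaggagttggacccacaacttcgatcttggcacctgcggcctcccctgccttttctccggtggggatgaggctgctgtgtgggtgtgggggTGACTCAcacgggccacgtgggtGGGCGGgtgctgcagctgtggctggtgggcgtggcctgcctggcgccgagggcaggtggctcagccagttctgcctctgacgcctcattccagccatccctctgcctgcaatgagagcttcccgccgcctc
SPRR1B, chr1:153030953-153031252, plus strand: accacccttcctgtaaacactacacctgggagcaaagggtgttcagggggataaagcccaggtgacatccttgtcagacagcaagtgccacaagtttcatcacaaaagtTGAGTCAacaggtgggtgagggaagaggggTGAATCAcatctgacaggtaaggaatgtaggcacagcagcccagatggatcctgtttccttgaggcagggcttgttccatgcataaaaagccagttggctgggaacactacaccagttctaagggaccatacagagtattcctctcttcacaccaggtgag
IVL, chr1:152908296-152908595, plus strand: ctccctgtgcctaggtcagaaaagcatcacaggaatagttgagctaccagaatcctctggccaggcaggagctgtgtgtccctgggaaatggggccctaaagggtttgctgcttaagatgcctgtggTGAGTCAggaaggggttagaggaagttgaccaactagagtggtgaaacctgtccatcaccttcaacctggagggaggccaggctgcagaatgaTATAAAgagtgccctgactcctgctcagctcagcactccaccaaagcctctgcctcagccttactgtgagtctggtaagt

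All 5 promoters, including that of SPRR1A, held at least 1 TGANTCA, which 7.71% of the 35116 RefSeq promoters of that length held. Counted from the RefSeq start, it began 173 and 71 bases before the start in SBSN, 104 bases before it in TRPV3, 141 and 111 in SPRR1B, 123 in IVL and 108 in SPRR1A. The GENCODE release 29 model of TRPV3 on the minus strand reaches to 3557995, within the window searched. The TGANTCA and GGGCGG of TRPV3 thus lie inside that model. The match at 111 in SPRR1B reads TGAATCA, and the share of 7.71% counts matches with any base at N. The heptamer was present in TRPV3 and SBSN, whose knockdown libraries lay above those of shGFP. It was also present in SPRR1B, where they lay below, and in IVL and SPRR1A, where they overlapped. For SPRR2D, PI3 and CSTA, which also lay below, no sequence was searched, so no relation to direction is read from this. TATAAA stood in IVL, 30 bases before the start, and in SPRR1A, 29 bases before it, and 11.5% of all promoters held it. GGGCGG stood only in TRPV3 among the 5, 81 bases before the start, and 45.0% of all promoters held it. CCGGAAG was present in 10.3% and CCAAT in 34.6% of all promoters. The GC content was 55.0% in SBSN, 65.0% in TRPV3, 50.3% in SPRR1B, 53.3% in IVL and 50.3% in SPRR1A, against a median of 58.7% over all promoters. TRPV3 held 12 CpG dinucleotides, SBSN 4, SPRR1A 3, and SPRR1B and IVL 0, against a median of 14. A match to these letters is a description of the sequence and not evidence of a bound site.

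TRPV3 (ENSG00000167723.14, chromosome 17, 3510502 to 3557995, minus strand) encodes a warmth-sensitive calcium-permeable channel of keratinocytes that is known from mouse keratinocytes to act together with the EGF receptor and to raise transglutaminase activity. It had 204, 255 and 229 counts with shCHAF1B-1 and 199, 232 and 183 counts with shCHAF1B-2, against 3, 3 and 7 counts with shGFP. As levels these were 8.29, 8.17 and 9.03 CPM under shCHAF1B-1 and 8.28, 9.11 and 7.69 CPM under shCHAF1B-2, against 0.116, 0.107 and 0.246 CPM with shGFP. In shGFP, 2 of the 3 libraries held 3 counts, and the highest, replicate 3, held 7. Means were 8.50 ± 0.463 CPM under shCHAF1B-1 and 8.36 ± 0.710 CPM under shCHAF1B-2, against 0.156 ± 0.0775 CPM with shGFP (SD, n = 3 each). Relative to shGFP, its log2 fold change came to 5.71 (SE 0.200) in shCHAF1B-1 libraries and 5.69 (SE 0.201) in shCHAF1B-2 libraries. The ratio of summed levels in the 6 knockdown libraries over shGFP was 53.4, with a 95% exact binomial interval of 31.1 to 101 that covers counting error only and rests on 13 shGFP counts. For the mean of both hairpins the log2 fold change was 5.70, and 6.18 when shGFP replicate 3, the library with 7 counts, was left out.

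SBSN (ENSG00000189001.10, chromosome 19, 35523367 to 35528351, minus strand) encodes suprabasin, a secreted protein of the suprabasal epidermis. It had 93, 135 and 102 counts with shCHAF1B-1 and 103, 93 and 110 counts with shCHAF1B-2, against 2, 5 and 7 counts with shGFP. Levels were 3.78, 4.33 and 4.02 CPM under shCHAF1B-1 and 4.28, 3.65 and 4.62 CPM under shCHAF1B-2, against 0.0771, 0.179 and 0.246 CPM with shGFP. The lowest knockdown library was thus far above the highest shGFP library for either gene. The fitted log2 fold change came to 4.54 (SE 0.247) in shCHAF1B-1 libraries and 4.58 (SE 0.248) in shCHAF1B-2 libraries, and the ratio of summed levels was 24.2 (95% counting interval 14.3 to 44.6, 14 shGFP counts). Without shCHAF1B-1 replicate 3, which carried the B lymphocyte transcripts, the log2 fold change for the mean of both hairpins was 4.57 for SBSN and 5.68 for TRPV3, against 4.56 and 5.70 with it.

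Both TRPV3 and SBSN had few counts in shGFP, 13 and 14 over the 3 libraries, and neither was abundant in any group. Per kilobase of annotated exon, SBSN reached 2.04 ± 0.138 CPM under shCHAF1B-1 and 2.11 ± 0.249 CPM under shCHAF1B-2, against 0.0842 ± 0.0427 CPM with shGFP. TRPV3 reached 0.869 ± 0.0473 CPM per kilobase with shCHAF1B-1 and 0.855 ± 0.0726 with shCHAF1B-2, against 0.0160 ± 0.00792 with shGFP (SD, n = 3 each). In knockdown, CSTA was thus still far more abundant per length than either of them.

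IVL (ENSG00000163207.6, chromosome 1, 152908545 to 152911886, plus strand) encodes involucrin, a scaffold onto which the other envelope proteins are joined. Its levels were 2.85, 3.49 and 2.60 CPM under shCHAF1B-1 and 2.37, 2.87 and 2.98 CPM under shCHAF1B-2, against 1.73, 2.08 and 2.56 CPM with shGFP. The highest shGFP library lay within the range of the shCHAF1B-2 libraries. Against shGFP, the fitted log2 change was 0.49 (SE 0.177) in shCHAF1B-1 libraries and 0.36 (SE 0.180) in shCHAF1B-2 libraries. Involucrin mRNA was therefore a little higher on average in both knockdowns, by about as much as libraries of 1 group differed from each other.

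SPRR1B (ENSG00000169469.8, chromosome 1, 153031202 to 153032900, plus strand) and SPRR2D (ENSG00000163216.6, chromosome 1, 153039725 to 153041931, minus strand) encode small proline-rich proteins that cross-bridge the envelope. SPRR1B had 1.99, 1.28 and 1.46 CPM under shCHAF1B-1 and 1.58, 1.57 and 1.77 CPM under shCHAF1B-2, against 2.77, 3.05 and 2.46 CPM with shGFP. Relative to shGFP, its log2 fold change came to -0.82 (SE 0.182) in shCHAF1B-1 libraries and -0.75 (SE 0.183) in shCHAF1B-2 libraries. The groups did not overlap. SPRR2D had 17, 15 and 13 counts with shCHAF1B-1 and 9, 7 and 17 counts with shCHAF1B-2, against 27, 20 and 27 counts with shGFP. Its levels were 0.691, 0.481 and 0.513 CPM under shCHAF1B-1 and 0.374, 0.275 and 0.715 CPM under shCHAF1B-2, against 1.04, 0.717 and 0.947 CPM with shGFP. The highest knockdown library, at 0.715 CPM, lay just under the lowest shGFP library, at 0.717 CPM. SPRR2D had a fitted log2 change of -0.69 (SE 0.308) in shCHAF1B-1 libraries and -0.99 (SE 0.327) in shCHAF1B-2 libraries.

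SPRR1A (ENSG00000169474.4, chromosome 1, 152985231 to 152985500, plus strand), the close relative of SPRR1B, had 4, 3 and 2 counts with shCHAF1B-1 and 4, 5 and 3 counts with shCHAF1B-2, against 7, 9 and 4 counts with shGFP. These counts were below the filter, and the groups overlapped. The ratio of summed levels was 0.56 (95% counting interval 0.289 to 1.09). The interval covers counting error only and rests on 20 shGFP counts, so the ratio is uncertain and no verdict is drawn from it. The GENCODE release 29 model of SPRR1A is 270 bases long and starts 1150 bases after the RefSeq start, and the annotation used for counting is not given in the sources used here. SPRR genes have near-identical copies, and their values are uncertain wherever reads could not be placed in 1 copy.

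TGM1 (ENSG00000092295.11, chromosome 14, 24249114 to 24264432, minus strand) encodes transglutaminase 1, the membrane-bound enzyme that joins the envelope proteins. Its levels were 22.4, 22.9 and 21.9 CPM under shCHAF1B-1 and 21.3, 19.7 and 20.6 CPM under shCHAF1B-2, against 23.4, 24.5 and 22.8 CPM with shGFP. The shCHAF1B-2 libraries lay below the shGFP libraries, and 1 shCHAF1B-1 library lay among them. The fitted log2 fold change came to -0.07 (SE 0.0591) in shCHAF1B-1 libraries and -0.20 (SE 0.0599) in shCHAF1B-2 libraries.

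CSTA and PI3 encode inhibitors that are themselves built into the envelope: cystatin A, which blocks cysteine proteases, and elafin, which blocks neutrophil elastase. CSTA (ENSG00000121552.3, chromosome 3, 122325244 to 122341972, plus strand) had 110, 106 and 110 CPM under shCHAF1B-1 and 110, 106 and 130 CPM under shCHAF1B-2, against 137, 149 and 162 CPM with shGFP. Against shGFP, the fitted log2 change was -0.46 (SE 0.0737) in shCHAF1B-1 libraries and -0.37 (SE 0.0737) in shCHAF1B-2 libraries. The knockdown libraries all lay below the shGFP libraries, by a modest margin. PI3 (ENSG00000124102.4, chromosome 20, 45174876 to 45176544, plus strand) had 8.17, 8.14 and 8.32 CPM under shCHAF1B-1 and 7.65, 7.30 and 8.37 CPM under shCHAF1B-2, against 12.8, 13.9 and 12.6 CPM with shGFP. Relative to shGFP, its log2 fold change came to -0.68 (SE 0.0817) in shCHAF1B-1 libraries and -0.76 (SE 0.0829) in shCHAF1B-2 libraries. The 2 groups of PI3 values were well apart, with 8.37 CPM as the highest knockdown library and 12.6 CPM as the lowest shGFP library. Without shCHAF1B-1 replicate 3, the log2 fold change for the mean of both hairpins was -0.42 for CSTA, -0.72 for PI3, -0.76 for SPRR1B, -0.81 for SPRR2D, 0.47 for IVL and -0.12 for TGM1, against -0.42, -0.72, -0.78, -0.84, 0.43 and -0.14 with it.

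Summed over the 9 genes, the level was 157 ± 1.96 CPM under shCHAF1B-1 and 161 ± 13.6 CPM under shCHAF1B-2, against 192 ± 12.2 CPM with shGFP (SD, n = 3 each). CSTA made up most of that sum, 69.1% with shCHAF1B-1 and 71.5% with shCHAF1B-2, against 77.6% with shGFP. TRPV3 made up 5.42% with shCHAF1B-1 and 5.23% with shCHAF1B-2, against 0.0802% with shGFP. The sum therefore followed CSTA and not the 2 genes with the largest fold changes.

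The order of levels per kilobase of exon began with CSTA, PI3, TGM1 and SPRR1B in all groups. CSTA had 78.9 ± 1.77 CPM per kilobase with shCHAF1B-1 and 84.1 ± 9.21 with shCHAF1B-2, against 109 ± 8.93 with shGFP. PI3 followed at 14.2 ± 0.165 CPM per kilobase with shCHAF1B-1 and 13.5 ± 0.941 with shCHAF1B-2, against 22.8 ± 1.22 with shGFP. TGM1 came next at 6.0 ± 0.134 CPM per kilobase with shCHAF1B-1 and 5.50 ± 0.208 with shCHAF1B-2, against 6.31 ± 0.235 with shGFP. Below these, SBSN held rank 5 with either CHAF1B hairpin and rank 8 with shGFP, and TRPV3 held rank 7 with either CHAF1B hairpin and rank 9 with shGFP. SPRR1B, at 2.54 ± 0.596 CPM per kilobase with shCHAF1B-1, and SBSN did not differ there beyond their spread. IVL, SPRR1A and SPRR2D, at 0.987 ± 0.193, 0.904 ± 0.347 and 0.853 ± 0.158 CPM per kilobase in shGFP, did not differ beyond their spread either. The same held for SPRR2D and SPRR1A in both knockdowns, and the short model of SPRR1A makes its level per length uncertain.

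The 2 hairpins did not give a detectable difference for any of the 8 fitted genes. Over all genes tested, 0% were higher and 0% lower with shCHAF1B-1 than with shCHAF1B-2 after Benjamini-Hochberg adjustment in edgeR's quasi-likelihood test, and likewise by DESeq2 and limma-voom, while 1800 genes had an unadjusted p under 0.05. Of the 8 genes, 0 had an unadjusted p under 0.05, and the lowest was 0.0582 for TGM1 by edgeR. The narrowest interval was that of TGM1, with a log2 difference of 0.12 (-0.01 to 0.25 at 95%, adjusted p = 0.458 by edgeR). The widest was that of SPRR2D, at 0.30 (95% interval -0.46 to 1.06, adjusted p = 0.753 by edgeR). For TRPV3 and SBSN the intervals were tight relative to their change against shGFP. TRPV3 differed by 0.02 (95% interval -0.21 to 0.26, adjusted p = 0.95 by edgeR) and SBSN by -0.05 (95% interval -0.37 to 0.28, adjusted p = 0.926 by edgeR). SPRR1B differed by -0.07 (-0.49 to 0.36), PI3 by 0.08 (-0.11 to 0.27), CSTA by -0.09 (-0.25 to 0.07) and IVL by 0.13 (-0.25 to 0.50), with adjusted p-values by edgeR of 0.916, 0.728, 0.631 and 0.788. A p that misses the threshold does not show that the hairpins act alike, and the intervals bound the difference.

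**Figure D2:**
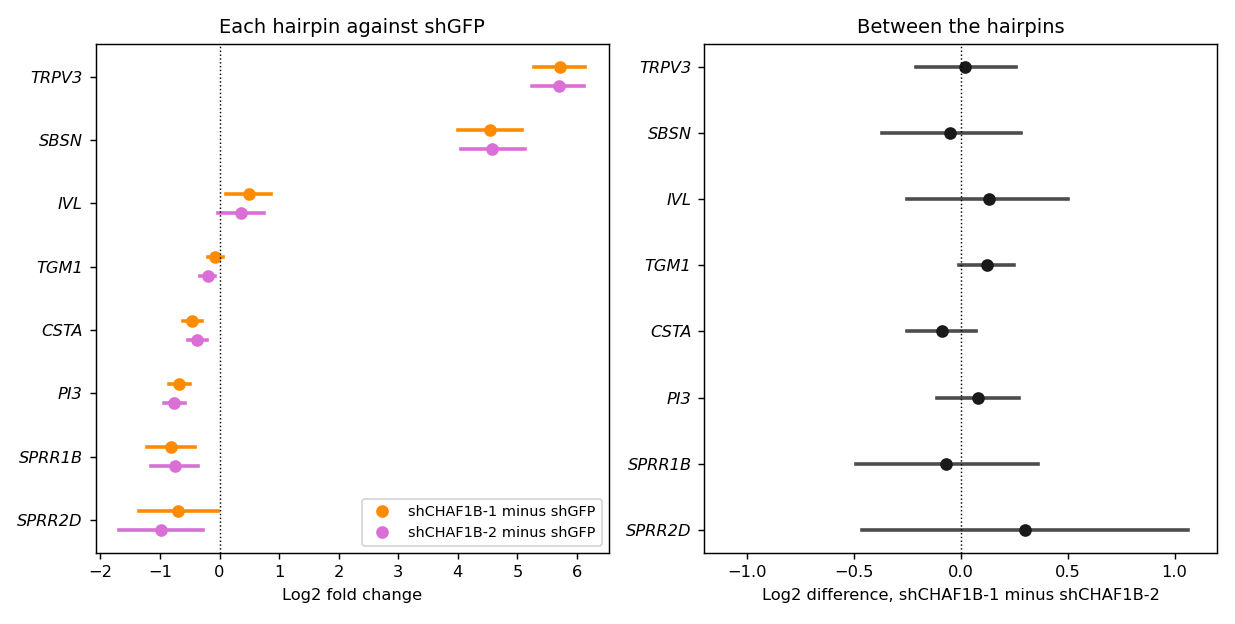
Left, log2 fold change of each hairpin against shGFP for the 8 fitted genes; right, log2 difference of shCHAF1B-1 minus shCHAF1B-2. Points are edgeR estimates and lines are 95% intervals. Those on the left are a description, since the genes were chosen with these contrasts known. TRPV3 and SBSN stand at 5.70 and 4.56 for the mean of both hairpins, the other 6 lie between -0.84 and 0.43, and every interval of the difference between hairpins includes 0.

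Around these 9 genes, 153 other genes of squamous differentiation were listed by role, of which 113 had a row and 82 were tested. Of the rest, 40 had no row and 31 had a row but were below the filter. The lists were drawn up with earlier results of these data known, so their counts are descriptions. Of the 82, 30 rose (36.6%) and 16 fell (19.5%) under both hairpins, and 36 passed in neither direction, beside 23.8% and 20.8% of all genes tested. The median log2 fold change of the 82, for the mean of both hairpins, was 0.14, against -0.0135 over all genes tested. With a single hairpin, 53.2% of all genes tested passed in either direction with shCHAF1B-1 and 51.3% with shCHAF1B-2. Without shCHAF1B-1 replicate 3, 30 rose and 15 fell, and HRNR was the gene whose call was lost. Where a gene below has a pair of log2 values, the first is for shCHAF1B-1 and the second for shCHAF1B-2. Adjusted p-values are from edgeR's quasi-likelihood test with Benjamini-Hochberg adjustment over all genes tested.

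Among 14 other envelope precursors, 2 rose and 3 fell, and the median was 0.00. LYPD3, a surface protein of suprabasal cells, rose to 38.9 ± 2.72 CPM under shCHAF1B-1 and 35.6 ± 1.77 CPM under shCHAF1B-2, against 11.1 ± 1.31 CPM with shGFP (log2 fold changes 1.80 and 1.67, adjusted p = 9.65e-10 and 2.27e-09). DMKN, which encodes dermokine, rose by 0.48 and 0.46 (log2). LCE1E and LCE1B, late envelope proteins, fell: LCE1E had log2 fold changes of -0.99 and -0.83 and LCE1B of -0.50 and -0.69. HRNR, a filaggrin-like protein, fell as well, by 1.01 and 1.63 (log2), with every group mean under 0.5 CPM. It held 1 to 14 counts per library, and its adjusted p by edgeR was 0.0498 with shCHAF1B-1 and 0.00858 with shCHAF1B-2. Filaggrin itself, FLG, had 1.31 CPM under shCHAF1B-1 and 1.22 CPM under shCHAF1B-2, against 1.22 CPM with shGFP, and did not pass. LCE1C passed with shCHAF1B-1 (adjusted p = 0.0314) and not with shCHAF1B-2 (adjusted p = 0.0809), and the difference between hairpins was not past the threshold.

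Of 15 genes for crosslinking and proteolysis, 7 rose and 2 fell, with a median of 0.37. TGM2, the tissue transglutaminase, rose to 27.7 ± 2.48 CPM under shCHAF1B-1 and 25.9 ± 2.18 CPM under shCHAF1B-2, against 9.35 ± 1.33 CPM with shGFP (log2 fold changes 1.57 and 1.47, adjusted p = 3.02e-08 and 6.80e-08). TGM1, given above, had log2 fold changes of -0.07 and -0.20. KLK5, a kallikrein that starts the shedding of surface cells, rose by 1.85 and 1.43 (log2). SPINK5, which encodes the inhibitor of KLK5, fell by 0.66 and 0.67 (log2). CSTB, the relative of CSTA, fell by 0.25 (log2) with either hairpin.

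Of 8 keratins of suprabasal and activated cells, 1 rose, 1 fell and 6 passed in neither direction, with a median of 0.01. KRT80 rose to 49.0 ± 3.31 CPM under shCHAF1B-1 and 43.6 ± 1.04 CPM under shCHAF1B-2, against 15.6 ± 1.22 CPM with shGFP. KRT17 fell to 399 ± 35.8 CPM under shCHAF1B-1 and 386 ± 25.8 CPM under shCHAF1B-2, against 880 ± 80.6 CPM with shGFP. KRT10, the keratin of the spinous layer, had 30.0 ± 2.94 CPM under shCHAF1B-1 and 31.5 ± 2.94 CPM under shCHAF1B-2, against 30.5 ± 0.964 CPM with shGFP, and did not pass. All 7 genes of the basal layer passed, 4 up and 3 down. KRT5 fell by 0.83 and 0.85 (log2) and its partner KRT14 by 0.51 and 0.53 (log2). ITGB4, the hemidesmosome integrin, rose by 1.03 and 0.87 (log2), and KRT15 by 0.87 and 0.75 (log2).

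Of 10 genes for barrier lipids, 7 rose and 2 fell, with a median of 0.48. UGCG, the enzyme that makes glucosylceramide, rose by 1.24 and 1.29 (log2), and ALOXE3, an epidermal lipoxygenase, by 1.36 and 1.40 (log2). FABP5, a fatty acid carrier, fell by 0.69 and 0.91 (log2). Of 3 junction genes tested, the connexin gene GJB2 rose by 1.67 and 1.64 (log2), and the desmosomal cadherin DSG3 fell by 0.41 (log2) with either hairpin.

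Of 15 regulators of differentiation, 5 rose and 3 fell, with a median of 0.01. The transcription factor genes ELF3 and KLF4 rose, ELF3 by 1.62 and 1.17 (log2) and KLF4 by 0.83 and 0.74 (log2). MAF rose by 1.99 and 1.93 (log2), at 0.641 CPM under shCHAF1B-1 and 0.615 CPM under shCHAF1B-2, against 0.154 CPM with shGFP. EHF, another epithelial ETS factor, fell to 7.11 ± 1.06 CPM under shCHAF1B-1 and 6.95 ± 0.61 CPM under shCHAF1B-2, against 28.2 ± 1.67 CPM with shGFP (log2 fold changes -1.99 and -2.02, adjusted p = 2.49e-09 and 2.68e-09). Of 10 genes of TRPV channels and calcium handling, 3 rose and 1 fell, with a median of 0.10. TRPV2 rose by 1.90 and 1.84 (log2), to 1.00 ± 0.293 CPM under shCHAF1B-1 and 0.965 ± 0.157 CPM under shCHAF1B-2, against 0.268 ± 0.171 CPM with shGFP. The calcium pumps ATP2A2 and ATP2C1 rose, ATP2A2 by 0.31 and 0.33 (log2) and ATP2C1 by 0.25 and 0.35 (log2), and the calcium sensor STIM2 fell by 0.35 and 0.44 (log2).

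**Figure D3:**
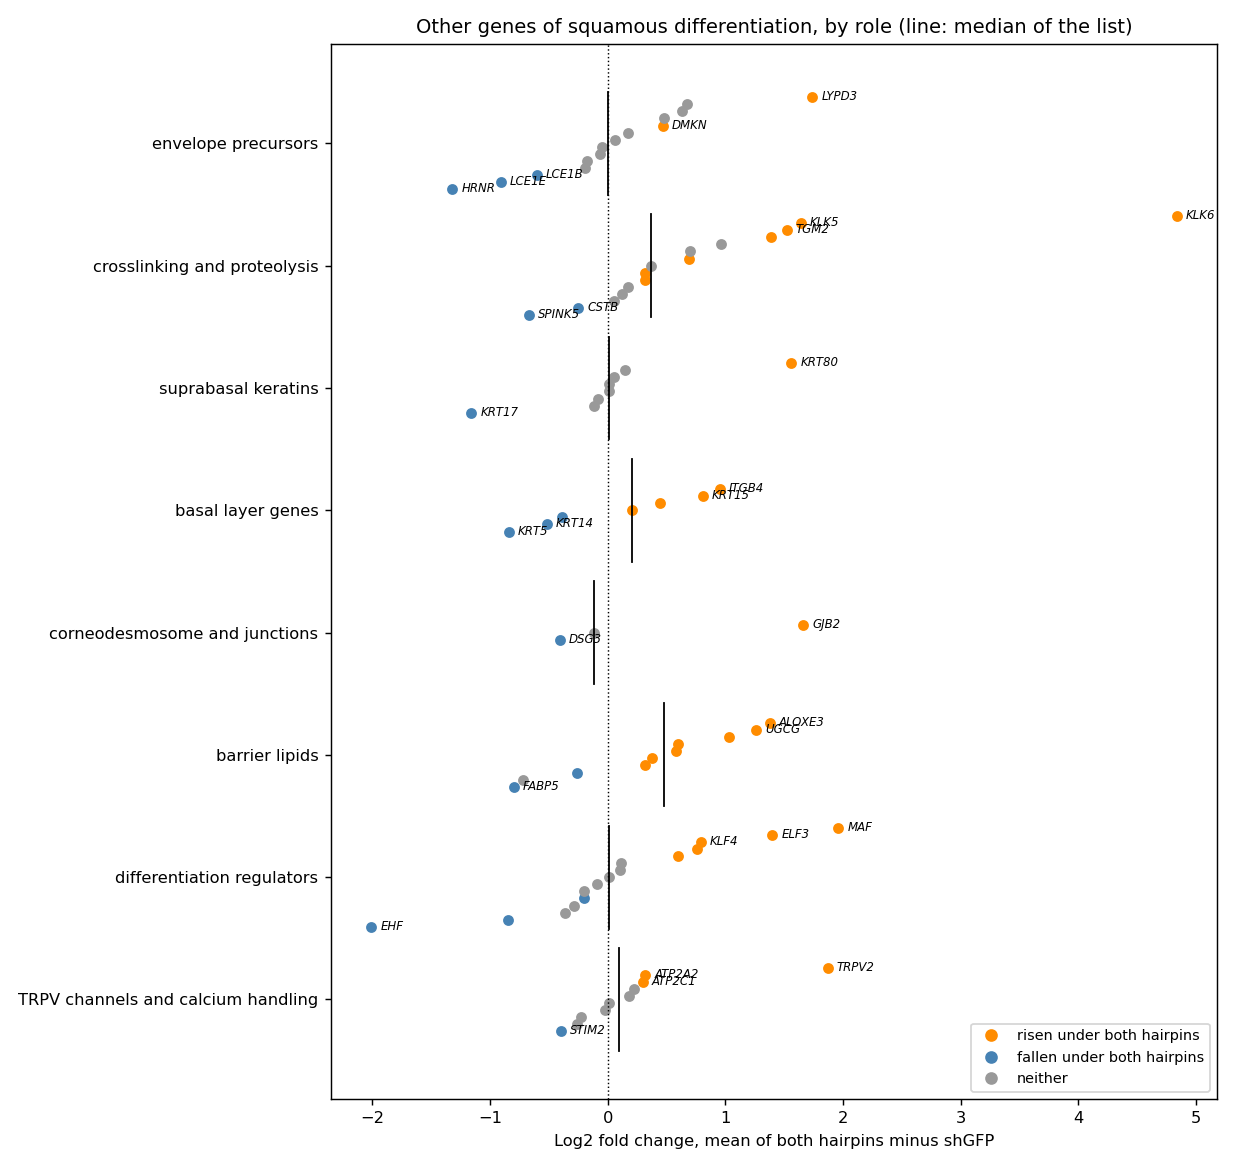
Log2 fold change of the mean of both hairpins minus shGFP for the 82 tested genes of 8 lists, by role. Each point is a gene, coloured by whether it rose or fell under both hairpins, and the black line is the median of the list. The medians lie between -0.12 (junctions) and 0.48 (barrier lipids).

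IVL, SPRR1A, SPRR1B and SPRR2D lie in the epidermal differentiation complex on chromosome 1, a cluster of envelope genes. The stretch taken here runs over 951 kb from TCHH to SPRR2A, from 152106317 to 153057537. It is not the whole complex, and SPRR2E and SPRR2F, which had rows, lie beyond its end. Besides these 4 members, 14 protein-coding genes of this stretch had a row and 7 were tested. Of these 7, 1 rose (14.3%), 3 fell (42.9%) and 3 passed in neither direction, beside 23.8% and 20.8% of all genes tested. The gene that rose was KPRP, a keratinocyte proline-rich protein gene, named after its values were seen. It had 30, 34 and 36 counts with shCHAF1B-1 and 16, 23 and 21 counts with shCHAF1B-2, against 1 count in each shGFP library, a ratio of 28.4 (95% counting interval 9.56 to 139). Its log2 fold change was 4.91 with shCHAF1B-1 and 4.32 with shCHAF1B-2. KPRP passed the filter on low counts only through the knockdown libraries. These values are a description without a p, since they are what singled it out. IVL, whose start lies 149 kb from that of KPRP, stood at 0.43 for the mean of both hairpins, and SPRR1B, further on, at -0.78. The genes that fell were LCE1E, LCE1B and HRNR, and those that passed in neither direction were FLG, TCHH and LCE1C.

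The 2 other genes with large fold changes lie elsewhere, and the genes around them were looked at within 250 kb, a distance chosen after the data were seen. Around TRPV3, 13 genes were tested, of which 0 rose and 4 fell. TRPV1, the heat-sensing channel gene whose start lies 51.4 kb from that of TRPV3, had a log2 fold change of -0.26 for the mean of both hairpins and did not pass. ASPA, 85.6 kb away on the other side, fell by 1.73 on the log2 scale. Around SBSN, 15 genes were tested, of which 1 rose and 3 fell. The gene that rose was DMKN, 14.7 kb away and also expressed in suprabasal epidermis, with a log2 fold change of 0.47 beside 4.56 for SBSN. Around PI3, 2 of 10 genes rose and 0 fell, around CSTA 2 of 7 rose and 2 fell, and around TGM1 5 of 29 rose and 4 fell. Over all genes tested, 23.8% rose and 20.8% fell under both hairpins, and no local effect is read from these small counts.

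**Figure D4:**
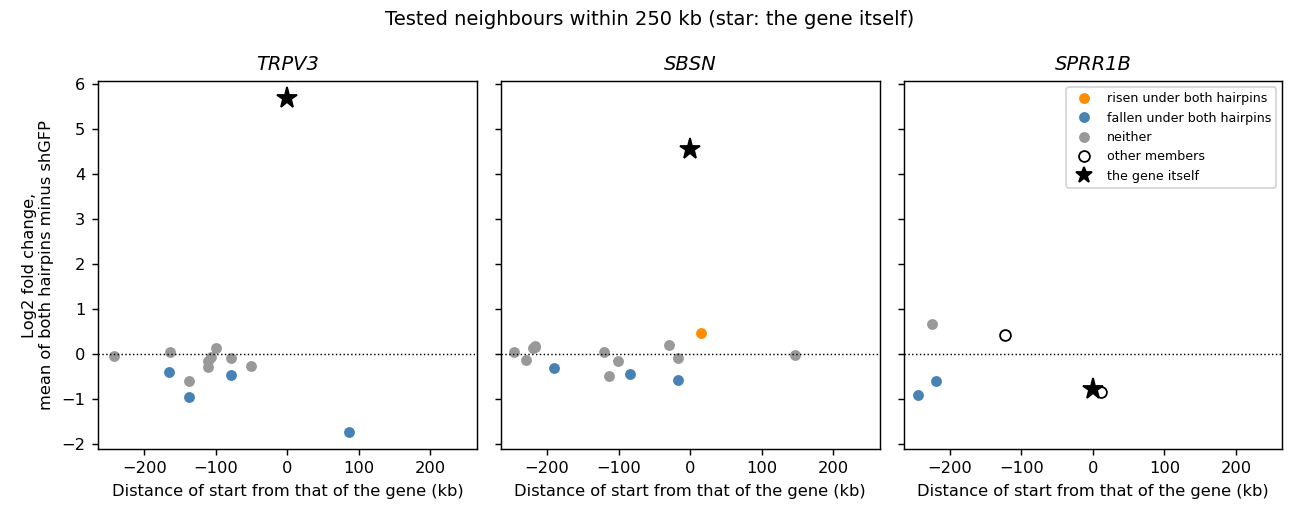
Log2 fold change of the mean of both hairpins minus shGFP for tested genes within 250 kb of TRPV3, SBSN and SPRR1B, by the distance between starts in kb, with upstream negative. The star is the gene itself, and open circles are other members. TRPV3, at 5.70, and SBSN, at 4.56, lie above their neighbours, which are between -1.73 and 0.47.

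The genes most like TRPV3 over the 9 libraries, by the root mean square difference of centred log2 CPM among 11763 protein-coding genes of at least 1 CPM, were DEPP1 (0.261), MMP1 (0.303) and COL6A3 (0.339). TRPV3, and SPRR2D below, were taken for the size of their change against shGFP. The measure therefore favours genes with a change of like size, and no shared regulation is read from it. DEPP1 had 26.3 ± 0.62 CPM under shCHAF1B-1 and 24.5 ± 1.96 CPM under shCHAF1B-2, against 0.375 ± 0.0712 CPM with shGFP. MMP1, an interstitial collagenase, had 3.71 ± 0.273 CPM under shCHAF1B-1 and 3.48 ± 0.468 CPM under shCHAF1B-2, against 0.0844 ± 0.0526 CPM with shGFP. That shGFP level rests on 7 counts over all shGFP libraries, so the size of its rise is uncertain. COL6A3, a collagen chain, had log2 fold changes of 5.40 with shCHAF1B-1 and 5.35 with shCHAF1B-2. For SPRR2D, whose estimate of -0.84 (SE 0.268) was the lowest of the 8 but within its error of the -0.78 (SE 0.154) of SPRR1B, the closest were KIAA1211 (0.285), NUDT7 (0.291) and KBTBD11 (0.311). KIAA1211 had log2 fold changes of -0.78 and -1.23 with shCHAF1B-1 and shCHAF1B-2, NUDT7 of -0.71 and -0.92, and KBTBD11 of -0.74 and -0.98.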

How the data were processed

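The authors deposited raw counts per gene, whole numbers that were not normalized, for 9 libraries of polyadenylated RNA prepared with the TruSeq version 2 kit, per the labels. Per the submitters' processing notes, STAR 2.5.3a, HTSeq 0.8.0 and DESeq2 1.18.1 were used, with the builds hg38 and mm10 named, in no stated role or order. The kit does not mark strand, so antisense or overlapping genes cannot be told apart. Identifiers were matched without version to GENCODE release 29 (26149 of 26186); all 9 members matched. The lowest gene total was 7 counts. The members and lists were chosen with earlier results of these data known. Genes were filtered with filterByExpr (minimum count 10, minimum total 15, proportion 0.7), scaled with TMM and tested with edgeR 4.0.16 in R 4.3.3 (quasi-likelihood test, 9 libraries in 1 fit, biological coefficient of variation 6.24%, Benjamini-Hochberg adjusted p under 0.05). CPM values use TMM-scaled library sizes, and 3 counts correspond to 0.0962 to 0.126 CPM. Within groups, sampling noise was exceeded by the difference between any pair of libraries.

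The genes named were the 9 members, up to 2 risen and 2 fallen genes of each list at 1 CPM or more, genes needed for counts of 5 or fewer, and the 3 genes most like the 2 members that changed most, with log2 CPM at a pseudocount of 0.5 counts. Of the genes this rule names, 2 are not reported here. Counting intervals are 95% exact binomial and cover counting error only. Promoters were searched with Python 3.11.15, and the fit was tested on simulated data. Alternatives were RLE and upper-quartile scaling, DESeq2 1.42.0, limma-voom (limma 3.58.1), other filters, the replicate number as a block, and leaving out each library.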

Additional observations from a re-analysis of the deposited data

How the results depend on the processing

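Under 16 alternatives the counts of genes called, 128 values, all stayed within 1.5 times those reported, and 0 genes differed between hairpins under each. Of the differentiation genes, 27 to 33 rose and 13 to 20 fell. Over all genes, 3421 to 3969 rose under both hairpins and 2976 to 3769 fell. The changes of the 8 fitted members against shGFP kept their sign under all alternatives that could be run, and 1 of 127 values, TRPV3 at 6.18 without shGFP replicate 3, moved beyond the spread between replicates. SPRR2D has no value under the filter of 1 CPM in 3 libraries, which removes it. Upper-quartile scaling moved the median of all genes most, to -0.045.

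The sign of the difference between hairpins turned in 6 of 127 values, all with 1 library left out and none past the threshold. With each library left out, it ranged from -0.15 to 0.00 for CSTA, -0.01 to 0.22 for IVL, -0.14 to 0.03 for SBSN, -0.26 to 0.07 for SPRR1B, and -0.03 to 0.09 for TRPV3, which was -0.02 without shCHAF1B-1 replicate 3. For SPRR2D it was 0.77 without shCHAF1B-2 replicate 3 and 0.03 without shCHAF1B-2 replicate 2, beside 0.30 with all libraries. The lowest adjusted p for any member and alternative was 0.353.

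With the replicate number as a block, 3751 genes rose and 3250 fell under both hairpins. The labels do not say what the numbers share, and libraries of the same number did not deviate together (correlations of -0.341 to 0.247 over 9 pairs, 1 of 9 libraries closest to its own number). The depth limits SPRR1A, SPRR2D and the shGFP levels of SBSN and TRPV3, at 20 counts or fewer in some or all libraries.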

Other observations

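CRCT1, a cysteine-rich gene of the epidermal differentiation complex, was singled out after its values were seen. It had 9, 13 and 6 counts with shCHAF1B-1 and 2, 6 and 7 counts with shCHAF1B-2, against 0 in each shGFP library. Against a floor of 3 counts per shGFP library, the 43 counts of the 6 knockdown libraries together gave a ratio of 2.55. That ratio is not a bound for each hairpin, and it has no counting interval. Mean levels were 0.340 CPM under shCHAF1B-1 and 0.204 CPM under shCHAF1B-2, whose replicate 1 held 2 counts, fewer than the floor. CRCT1 was below the filter and was not tested.

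KLK6, a kallikrein gene in the crosslinking and proteolysis list, was also singled out after its values were seen. It had 19, 16 and 12 counts with shCHAF1B-1 and 8, 11 and 10 counts with shCHAF1B-2, against 0, 0 and 1 count with shGFP. The ratio of summed levels was 40.5, with a 95% counting interval of 7.06 to 1620.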
